A study of Homo sapiens with 6 samples.

Results

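SLCO4A1 and SLCO4A1-AS1 are 2 of the 59609 gene names in the expression tables of this series, and they were read from the rows that carry these symbols. SLCO4A1 encodes OATP4A1, a transporter of organic anions in the plasma membrane. SLCO4A1-AS1 is a long non-coding RNA transcribed from the opposite strand inside the same gene. The pair was chosen by the measured FPKM values of these libraries, because the antisense RNA was near absent in control and present in deprived libraries. The values of both genes in deprived against control libraries are therefore given as a description, with no test. Only the difference between the 2 deprivations, which the choice did not use, was tested.

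All libraries came from 95D, a human lung cancer cell line that the labels give as genotype WT, and the labels do not say whether replicates were separate cultures. The spread behind each p-value is that between these libraries and may be technical. Cells were seeded for 24 h in complete DMEM with penicillin and streptomycin. They then spent 48 h in glutamine-free DMEM with 10% dialyzed fetal bovine serum (1 library used), in glucose-free DMEM with 10% dialyzed serum (2 libraries) or in control DMEM, for which the labels name no dialyzed serum (2 libraries). Lack of a nutrient and the change of serum cannot be told apart in any comparison with control, whereas both deprived media held dialyzed serum. RNA depleted of ribosomal RNA was sequenced, and 5 of the 6 labelled libraries were used, since the header of 1 value column did not match its table.

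OATP4A1 carries thyroid hormones, prostaglandin E2 and conjugated steroids such as estrone sulfate into cells, and many tissues and tumours express it. It belongs to the SLCO family, whose other members include the OATP uptake carriers of liver, brain and testis. An antisense RNA can share sequence with its sense gene where their exons overlap, and such RNAs are known to be regulated either with or apart from the sense gene. SLCO4A1-AS1 has been studied mainly in colorectal cancer, in connection with beta-catenin and EGFR signalling, and in lung cancer, in connection with TOX4 and NTSR1.

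In the GENCODE 29 annotation of GRCh38, the build named hg38 in the submitters' processing notes, SLCO4A1 lies on the plus strand at chr20:62642445-62685785. The SLCO4A1-AS1 gene lies on the minus strand at chr20:62663019-62666724, inside the SLCO4A1 gene, and its start is 24.3 kb from the SLCO4A1 start. The longest SLCO4A1-AS1 transcript has 4 exons and 1420 bases, and the SLCO4A1 transcript used for comparison has 12 exons and 2776 bases. The 2 transcripts share 346 exonic bases, 12.5% of the SLCO4A1 transcript and 24.4% of the antisense transcript. All of them lie in coding exons of SLCO4A1. Antisense exon 1 covers 191 of the 196 bases of SLCO4A1 exon 7 (shared bases chr20:62666385-62666575), and antisense exon 3 covers the whole of SLCO4A1 exon 6 (155 bases, chr20:62664934-62665088).

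**Figure D1:**
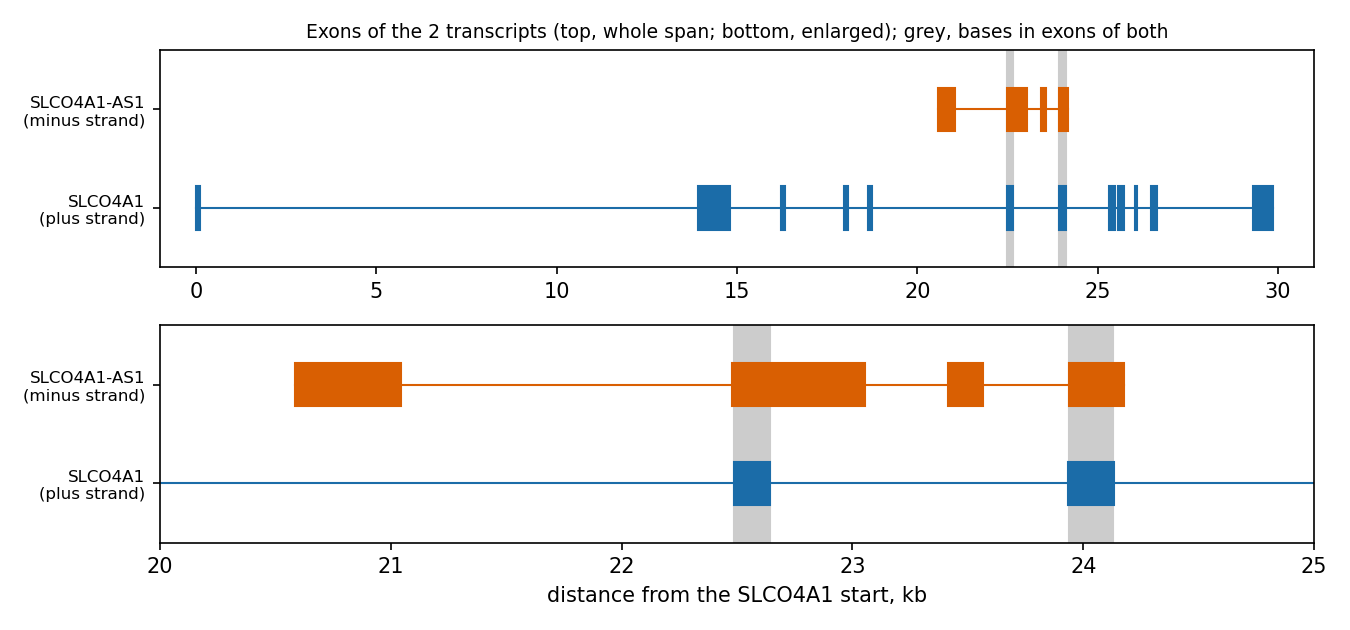
Exons of the longest SLCO4A1-AS1 transcript (orange, minus strand) and of the SLCO4A1 transcript used for comparison (blue, plus strand), by distance from the SLCO4A1 start in kb; the lower panel enlarges the antisense gene. Grey bands mark the 346 bases that lie in exons of both, in antisense exons 1 and 3.

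The stretches of the antisense RNA that hold this overlap are shown because reads from them could belong to either gene. They are written 5′ to 3′ on the minus strand of GRCh38, at chr20:62666385-62666595 for exon 1 and chr20:62664924-62665108 for exon 3. Capitals mark the bases complementary to the SLCO4A1 exon.
SLCO4A1-AS1 exon 1: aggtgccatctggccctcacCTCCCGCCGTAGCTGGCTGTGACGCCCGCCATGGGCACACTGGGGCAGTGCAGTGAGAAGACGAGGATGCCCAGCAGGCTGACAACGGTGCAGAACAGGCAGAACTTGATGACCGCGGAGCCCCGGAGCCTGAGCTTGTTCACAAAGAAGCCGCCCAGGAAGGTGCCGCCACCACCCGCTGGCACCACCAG
SLCO4A1-AS1 exon 3: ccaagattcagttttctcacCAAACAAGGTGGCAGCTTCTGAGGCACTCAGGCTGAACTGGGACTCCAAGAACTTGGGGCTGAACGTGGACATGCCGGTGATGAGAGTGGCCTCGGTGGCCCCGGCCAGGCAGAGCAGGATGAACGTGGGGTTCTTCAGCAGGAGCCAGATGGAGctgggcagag

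The promoter of the antisense RNA is shown because it lies inside SLCO4A1 and the level of its product differed so far between media. It is the 300-base window of the RefSeq table around the gene start (GRCh38.p14, chr20:62666572-62666871, minus strand). That start lies 1 base inside the longest GENCODE transcript. The GENCODE gene begins further upstream, at chr20:62666724, also within this window. The 3′ end of this window enters SLCO4A1 exon 7. Capitals mark the E-box CACGTG, which begins 126 bases before the RefSeq start and lies outside the GENCODE gene. They also mark the short cAMP response element TGACG, which begins 70 bases before the RefSeq start, inside the GENCODE gene.
SLCO4A1-AS1 promoter: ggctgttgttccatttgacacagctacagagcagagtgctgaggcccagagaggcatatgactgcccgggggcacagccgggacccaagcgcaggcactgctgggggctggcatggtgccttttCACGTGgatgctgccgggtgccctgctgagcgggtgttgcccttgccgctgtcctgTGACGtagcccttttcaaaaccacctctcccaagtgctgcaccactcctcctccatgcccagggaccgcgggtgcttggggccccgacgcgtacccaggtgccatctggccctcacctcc

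Motifs were searched on both strands of this window and of all 35116 RefSeq promoters of the same length. The E-box CACGTG, a sequence bound by factors such as MYC and USF1, had 1 match here and occurred in 7.26% of the promoters. TGACG, contained in the sites of CREB and ATF factors, had 1 match here and occurred in 24.6% of the promoters. The full cAMP response element TGACGTCA (1.85% of promoters), the AP-1 site TGANTCA (7.71%), the C/EBP-ATF composite TGATGNAA (3.62%), the CCAAT box (34.6%), the GC box GGGCGG (45.0%) and TATAAA (11.5%) had no match. Matches are letters in a window and show no binding. TGACG is also contained in TGACGTCA, and SLCO4A1 itself had no entry in the promoter table.

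SLCO4A1-AS1 was an abundant RNA in every deprived library and close to nothing in control medium. It stood at 114 FPKM (fragments per length of transcript and per library size, then scaled between libraries) in the glutamine-deprived library and at 145 and 137 FPKM in the glucose-deprived libraries, against 0.0383 FPKM in 1 control library and a listed value of 0 in the other. The gap between deprived and control libraries is what the pair was chosen for and is not a separate finding. As deposited, before scaling, the values were 123 FPKM in glutamine deprivation, 146 and 134 FPKM in glucose deprivation, and 0.0367 and 0 FPKM in control. The order of the libraries was the same before and after scaling. The glucose-deprived libraries averaged 141 ± 5.20 FPKM (SD, n = 2).

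On the scale of log2(FPKM + 1), used throughout for differences, SLCO4A1-AS1 was 6.82 higher in glutamine deprivation than in control and 7.12 higher in glucose deprivation than in control. The added 1 FPKM sets the size of these differences, as the control values lie far below it, and no ratio to control is given because 1 control is listed at 0. The 2 differences share their control libraries. With lengths of 649 to 1420 bases for its annotated transcripts and depths inferred from the tables, the levels correspond to about 2760 to 6050 reads in the glutamine-deprived library, 3500 to 7660 and 3060 to 6710 reads in the glucose-deprived libraries, and between 0.845 and 1.85 reads, or none, in the controls.

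SLCO4A1, the transporter gene, was expressed in all 5 libraries at a low level. It stood at 5.16 FPKM in glutamine deprivation and at 3.29 and 3.39 FPKM in glucose deprivation, against 5.18 and 4.47 FPKM in control. Both glucose-deprived libraries lay below both controls, and the glutamine-deprived library lay between the 2 controls, just under the higher one. Lower levels in glucose deprivation were common, as 28.3% of all genes tested were called lower there than in control. The mean was 3.34 ± 0.0683 FPKM in glucose deprivation and 4.83 ± 0.504 FPKM in control (SD, n = 2 each). As log2 differences, SLCO4A1 was 0.42 lower in glucose deprivation than in control, a ratio of 0.692. In glutamine deprivation the difference from control was 0.08, a ratio of 1.07 and less than the SD of 0.13 between the 2 controls on this scale. The direction of that small difference turned with the scaling, to -0.05 with upper-quartile scaling, and without control replicate 2 it was -0.01. By deposited values the glutamine-deprived library was the highest of the 5, at 5.58 FPKM, against 4.98 and 4.34 FPKM in control.

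**Figure D2:**
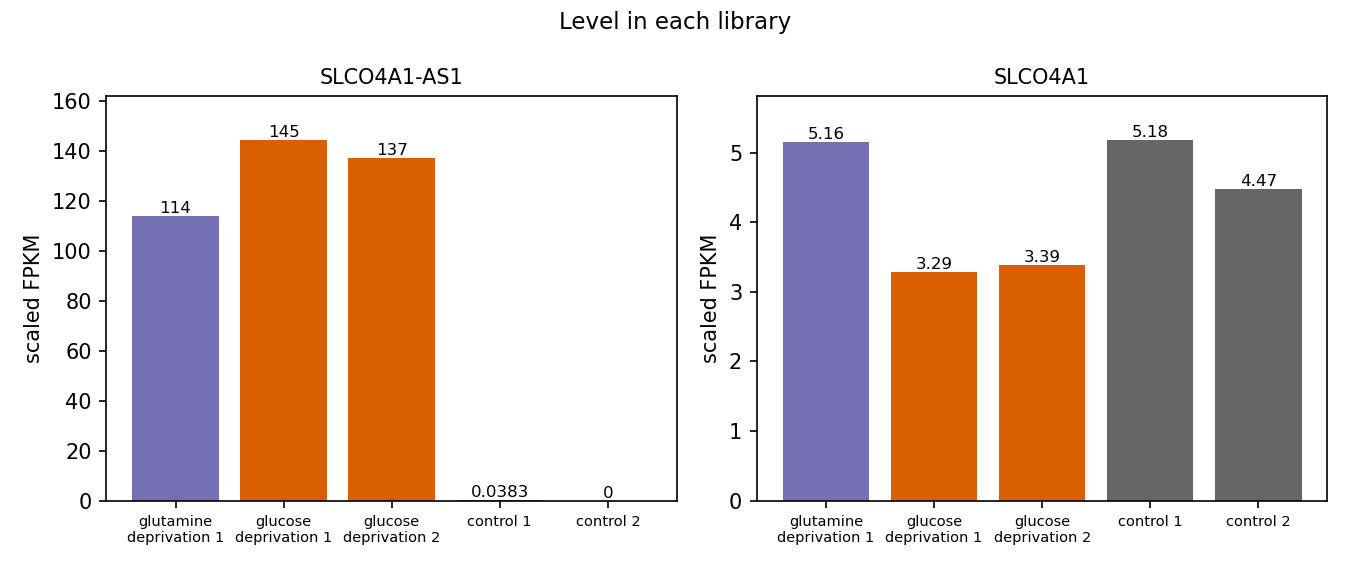
Scaled FPKM (linear axes from 0) of SLCO4A1-AS1 (left) and SLCO4A1 (right), 1 bar per library, with glutamine deprivation in purple, glucose deprivation in orange and control in grey. The antisense RNA stands at 114 to 145 FPKM in the deprived libraries and at most 0.0383 FPKM in control, while SLCO4A1 stays between 3.29 and 5.18 FPKM throughout.

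Between the 2 deprivations, where dialyzed serum was on both sides, the genes moved in opposite directions. SLCO4A1-AS1 fell by 0.30 ± 0.06 (SE) on the log2 scale in glutamine deprivation relative to glucose deprivation, to a ratio of 0.809 (limma, a linear model with moderated variances, Benjamini-Hochberg adjusted p = 0.00334). SLCO4A1 rose by 0.505 ± 0.09 (SE), a ratio of 1.55 (limma, adjusted p = 0.00268). In this comparison 44.6% of the 16598 genes tested, those that reached 1 FPKM in any library, were called at an adjusted p under 0.05, so a call in itself is common. The spread between replicates, pooled over groups, stands for the lone glutamine-deprived library. For SLCO4A1-AS1 this pool includes the controls, where the RNA was near absent and the added 1 FPKM keeps the spread small. Its SD on the log2 scale was 0.038 in control and 0.053 in glucose deprivation. The SE and p-value of SLCO4A1-AS1 thus rest in part on libraries almost without this RNA. The call for SLCO4A1-AS1 was lost under 4 of 12 alternative settings, among them scaling to the library total (-0.10, adjusted p = 0.756), and that for SLCO4A1 under 1, without a filter on low values (adjusted p = 0.0623).

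The level of the antisense RNA relative to its sense gene, per length, was 22.1 in glutamine deprivation and 44.0 and 40.5 in glucose deprivation, against 0.00738 and 0 in control. In all deprived libraries the antisense RNA thus exceeded the transporter's own RNA, and in both controls it was a small fraction of it.

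The strand setting of the authors' counting is not given in the sources used here, and without strand, reads from shared exonic bases cannot be told apart. The size of such a mixture can be set beside the values, taking coverage as even along each transcript. If antisense reads over the 346 shared bases were also counted for SLCO4A1, they alone would add 15.4 FPKM in the glutamine-deprived library and 18.3 and 16.8 FPKM in the glucose-deprived libraries. SLCO4A1 was listed there, as deposited, at 5.58, 3.33 and 3.32 FPKM, below those amounts in every case. In the other direction, SLCO4A1 reads counted for the antisense RNA would give it 1.21 and 1.06 FPKM in the controls, where 0.0367 and 0 FPKM were listed. These amounts hold only if each shared read is counted in full for both genes. Other ways of assigning such reads were not calculated, and the share of mixed reads was not tested.

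The antisense RNA stood apart in abundance among antisense-named rows, though not among all genes. By deposited values it ranked 217th of 59609 gene names in the glutamine-deprived library and 189th and 208th in the glucose-deprived libraries, against 24980th in control replicate 1. Of 1460 rows named as antisense RNAs it ranked first in each deprived library and was the sole one at or above 100 FPKM. The next of these rows was VPS9D1-AS1 in glutamine deprivation, at 21.0 FPKM, and THAP9-AS1 in glucose deprivation, at 18.8 and 17.2 FPKM. In control THAP9-AS1 led, at 17.8 and 18.3 FPKM. Among the 14171 rows that GENCODE 29 classes as long non-coding, SLCO4A1-AS1 ranked 11th in glutamine deprivation and 10th in both glucose-deprived libraries. The row ranked just above it in each was AC006064.5, at 118 FPKM in glutamine deprivation and at 146 and 165 FPKM in glucose deprivation. These neighbouring rows were picked after the values were seen.

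The pattern of near absence in control and presence in deprivation was rare in the table, and the thresholds used to count it were set after the values were seen. SLCO4A1-AS1 was chosen for this same pattern, so its place in these counts is a description and not a separate finding. Of 36028 rows at or below 0.1 FPKM in both controls, 4 reached 1 FPKM or more in all 3 deprived libraries. The other 3 were the short non-coding genes MIR2116, MIR4803 and RNU6-1176P, which stood between 1.54 and 2.93 FPKM in the deprived libraries and at 0 in control. SLCO4A1-AS1 alone reached 5, 10 or 100 FPKM. No gene showed the reverse pattern at any of these levels. The next largest log2 differences from control among genes tested were 2.92 for MIR3648-1 in glutamine deprivation and 3.07 for RNU6-616P in glucose deprivation.

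**Figure D3:**
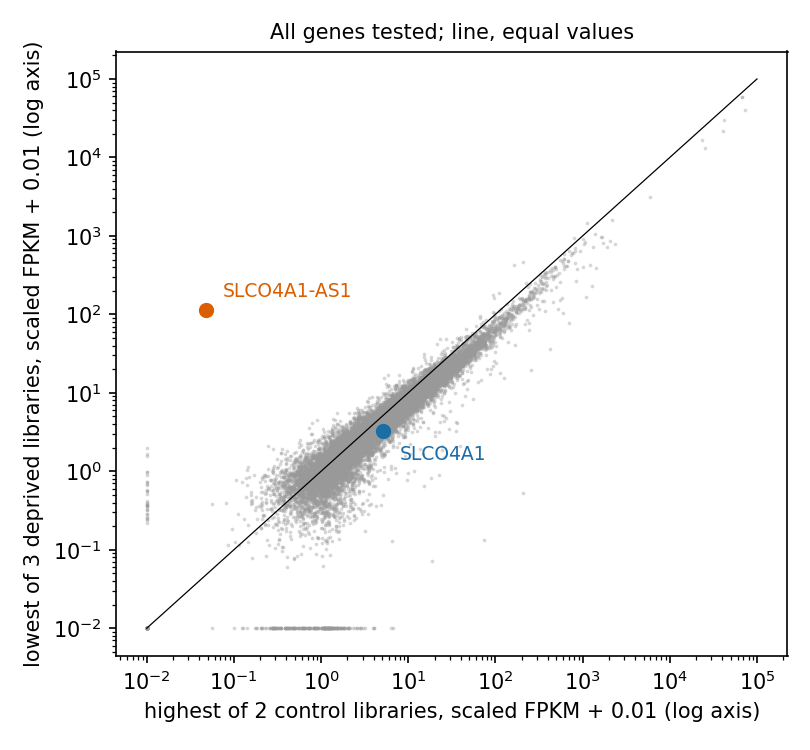
Each point is 1 of the 16598 genes tested; the x axis is its higher control value and the y axis its lowest value in the 3 deprived libraries, both as scaled FPKM + 0.01 on log axes, with a line at equal values. SLCO4A1-AS1 (orange) lies far above the line, with no other gene near it, and SLCO4A1 (blue) lies within the band of other genes.

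The genes whose profiles over the 5 libraries were most like those of the 2 genes were listed by Euclidean distance between mean-centred log2(FPKM + 1) values, as a description. For SLCO4A1-AS1 no gene was close. The distance counts the size of a change, so for a gene chosen for its large rise it favours genes with large rises. The nearest were MIR2278 at a distance of 5.41, DDIT3 at 5.42, AC090571.1 at 5.58, MIR5699 at 5.59 and MIR1205 at 5.68. DDIT3, which encodes the transcription factor CHOP, stood at 15.3 FPKM in glutamine deprivation and at 34.1 and 33.6 FPKM in glucose deprivation, against 5.30 and 5.20 FPKM in control. Its log2 differences from control were 1.38 in glutamine deprivation and 2.48 in glucose deprivation. The profile of SLCO4A1 was shared much more closely, by USP44 (distance 0.0273), IRF8 (0.0301), ADORA2A (0.0378), KLHL41 (0.0584) and MYCL (0.0610). USP44, for example, stood at 3.23 FPKM in glutamine deprivation and at 1.94 and 1.97 FPKM in glucose deprivation, against 3.29 and 2.73 FPKM in control.

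Around the locus, 55 other annotated genes within 500 kb had a row in the tables, and 20 of them reached the level for testing. In glutamine deprivation 9 rose and 5 fell against control (70.0% called, where 51.1% of all genes tested were called), with a median log2 difference of 0.19 beside 0.04 over all genes tested. In glucose deprivation 6 rose and 5 fell (55.0% called, where 54.8% of all genes tested were called), with medians of 0.05 and 0.02. By direction, 24.6% of all genes tested were called higher and 26.4% lower in glutamine deprivation, and 26.6% higher and 28.3% lower in glucose deprivation. The split over all genes tested depends on the scaling. Of the calls, 48.2% were higher in glutamine deprivation and 48.4% in glucose deprivation, against 31.3% and 38.9% with upper-quartile scaling, 67.4% and 54.2% without scaling, and 91.1% and 67.9% with scaling to the total. The median over all genes tested moved to as much as 0.30 in glutamine deprivation and 0.11 in glucose deprivation under scaling to the total. The neighbours' counts in glutamine deprivation moved with it, to 5 higher and 6 lower with the upper quartile and 10 higher and 1 lower with the total. Their median in glutamine deprivation stayed above that of all genes tested under every scaling, at 0.06 beside -0.09 with the upper quartile and 0.42 beside 0.30 with the total. However, AL121832.3 and MIR1-1HG-AS1, both called higher there, reached 1 FPKM only in the glutamine-deprived library. A change of scaling does not undo this selection by the filter.

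The neighbours changed far less than the antisense RNA. LAMA5, a laminin chain gene, rose in glutamine deprivation by 1.09 ± 0.06 (SE; limma, adjusted p = 2.07e-05), to 4.71 FPKM against 1.69 and 1.70 FPKM in control. AL117379.1, 287 kb from the SLCO4A1 start, is annotated as a long intergenic RNA but lies inside DIDO1 on the same strand. DIDO1 was called higher in both deprivations, by 0.25 in glutamine deprivation and 0.27 in glucose deprivation. Whether reads of DIDO1 were counted for AL117379.1 was not tested. AL117379.1 rose by 1.02 ± 0.27 in glutamine deprivation (limma, adjusted p = 0.0147). In glucose deprivation it rose by 1.14 ± 0.22 (limma, adjusted p = 0.00315). Both of its calls were lost without control replicate 2. PSMA7, a proteasome subunit gene, fell in both, by 0.80 ± 0.08 in glutamine deprivation (limma, adjusted p = 0.000124) and 0.70 ± 0.06 in glucose deprivation (limma, adjusted p = 7.63e-05). MTG2, which encodes a GTPase of the mitochondrial ribosome, fell in glucose deprivation by 0.76 ± 0.05 (limma, adjusted p = 1.61e-05). Of the rows nearest the antisense RNA, AL357033.1, AL357033.4 and AL357033.3 start on the minus strand 0.9 to 9.7 kb from the SLCO4A1 start, and none exceeded 0.306 FPKM in any library. NTSR1, the neurotensin receptor gene 66.4 kb from the SLCO4A1 start, did not exceed 0.0504 FPKM.

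**Figure D4:**
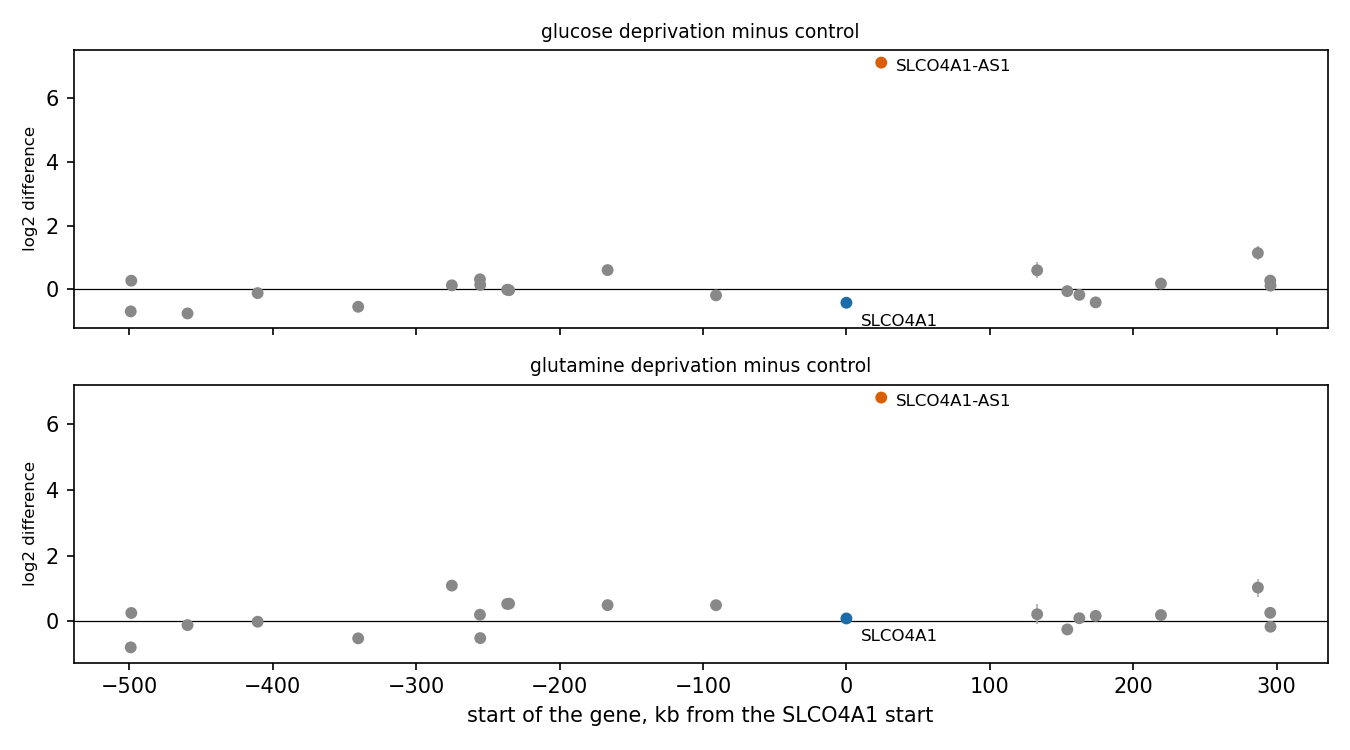
Log2 differences on the log2(FPKM + 1) scale for the 20 tested neighbours (grey, bars are SE) and for SLCO4A1-AS1 (orange) and SLCO4A1 (blue, both without bars), by distance of the gene start from the SLCO4A1 start in kb, for glucose deprivation (top) and glutamine deprivation (bottom) minus control. SLCO4A1-AS1 lies at 7.12 and 6.82, while the neighbours lie between -0.76 and 1.14 in glucose deprivation and between -0.80 and 1.09 in glutamine deprivation.

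Other antisense RNAs shared little of this. By name, 1437 other antisense RNAs could be paired with a sense gene, and 237 of them reached the level for testing. Many lay near that level of 1 FPKM. Some reached it only in a deprived library, such as ST7-AS1, and others only in control, such as NQO2-AS1. Entry through a deprived library favours rises, so the split between rises and falls depends in part on the filter. In glutamine deprivation 88 rose and 5 fell against control (39.2% called, below the 51.1% of all genes tested), with a median log2 difference of 0.27 beside 0.04 over all genes tested. In glucose deprivation 78 rose and 16 fell (39.7%, below the 54.8% of all genes tested), with medians of 0.19 and 0.02. The counts in glutamine deprivation were 64 higher and 13 lower with the upper quartile (233 tested) and 126 and 0 with the total (252 tested). The list's median stayed above 0 and above that of all genes tested under every scaling in both deprivations, but a change of scaling does not undo the selection by the filter. The largest other rise was 1.27 in glutamine deprivation, for FOXD2-AS1, and 1.32 in glucose deprivation, for PTOV1-AS2.

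FOXD2-AS1, antisense to a forkhead gene, stood at 3.24 FPKM in glutamine deprivation, against 0.807 and 0.696 FPKM in control (1.27 ± 0.13; limma, adjusted p = 0.000164). SLC9A3-AS1, TRPC7-AS1, TAPT1-AS1 and CCDC183-AS1 followed, with rises of 1.10 to 1.23. PTOV1-AS2 stood at 14.6 FPKM in both glucose-deprived libraries, against 5.80 and 4.71 FPKM in control (1.32 ± 0.09; limma, adjusted p = 2.22e-05). ATP6V0E2-AS1, ASMTL-AS1, RAB11B-AS1 and FBXL19-AS1 followed, with rises of 1.02 to 1.30. The calls for TRPC7-AS1 and RAB11B-AS1 were lost without a filter on low values. FOXD2-AS1, TAPT1-AS1 and ASMTL-AS1 reached 1 FPKM only in deprived libraries, so the filter favours their rises. The largest falls in glucose deprivation were those of CIRBP-AS1 (-1.06), ATP2A1-AS1 (-0.90) and DGUOK-AS1 (-0.72), the last lost without control replicate 1 or either glucose-deprived replicate. In glutamine deprivation OTUD6B-AS1 (-0.60) and ARHGAP5-AS1 (-0.57) fell, the second not called without either control, while GLIS2-AS1 (-0.51) did not pass the test (limma, adjusted p = 0.275).

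Of the 193 other pairs in which both genes were tested, both were called in 41 in glutamine deprivation (21.2%), 22 in the same direction and 19 in opposite directions. In glucose deprivation both were called in 51 (26.4%), 28 in the same direction and 23 in opposite directions. Taken singly, 35.8% of the antisense RNAs and 65.3% of the sense genes in these pairs were called in glutamine deprivation, where 51.1% of all genes tested were. In glucose deprivation the shares were 40.4% and 62.2%, where 54.8% of all genes tested were called. Nothing particular to the pairs is read from these counts, which were made under 1 scaling. A higher antisense RNA with a lower sense gene, the direction seen for SLCO4A1 in glucose deprivation, occurred in 18 of these pairs in glutamine deprivation and in 20 in glucose deprivation. CIRBP-AS1 and its sense gene CIRBP, which encodes a cold-inducible RNA-binding protein, moved in opposite directions in glucose deprivation, with differences of -1.06 and 0.91. The FBXL19 pair did so too, with 1.02 for the antisense RNA and -0.37 for the sense gene. Of the 191 sense genes tested, 60 rose and 64 fell in glutamine deprivation (64.9% called, where 51.1% of all genes tested were called) and 62 rose and 57 fell in glucose deprivation (62.3%, where 54.8% were). This split depends on the scaling. In glutamine deprivation it was 41 higher and 84 lower with the upper quartile and 70 and 6 with the total, and in glucose deprivation 45 and 71 with the upper quartile and 42 and 23 with the total. For pairs with overlapping exons the same limit on strand applies.

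**Figure D5:**
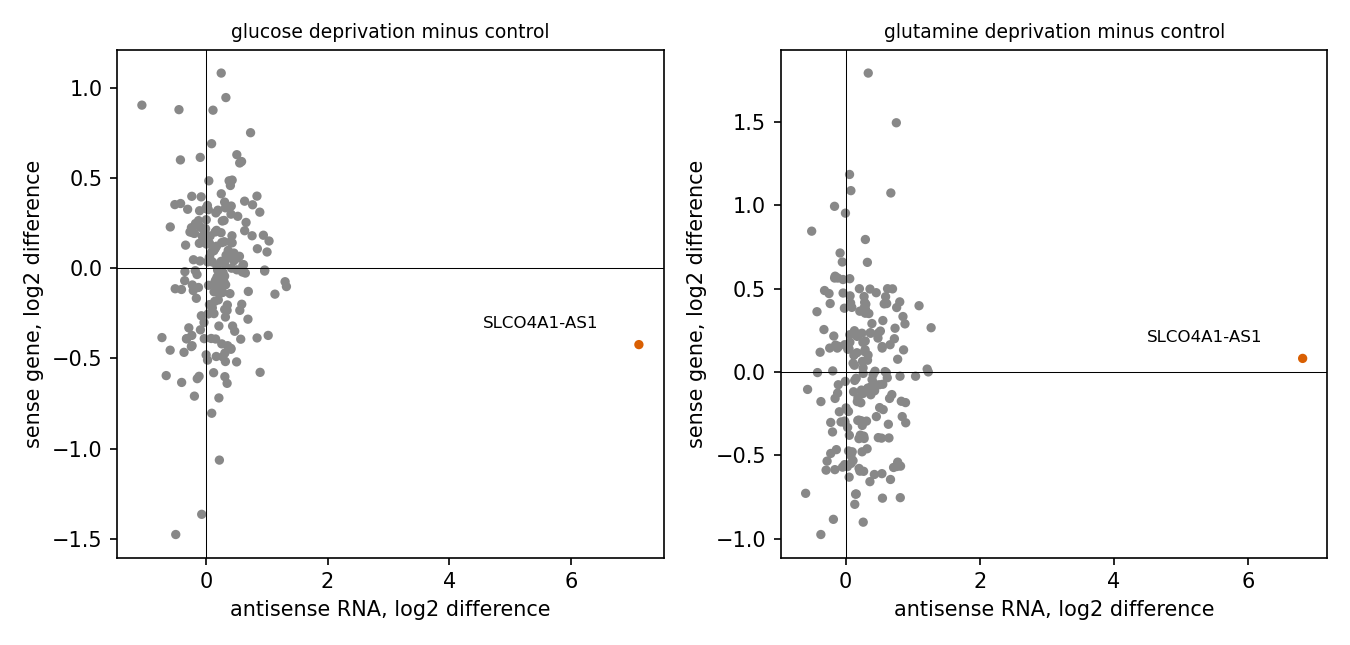
Log2 difference of the antisense RNA (x axis) and of its sense gene (y axis) on the log2(FPKM + 1) scale, 1 point per named pair with both genes tested, for glucose deprivation (left) and glutamine deprivation (right) minus control; the 193 other pairs are grey and the SLCO4A1 pair is orange. The SLCO4A1 pair lies at 7.12 and 6.82 on the x axis, where no other antisense RNA exceeds 1.32, and within the range of the other sense genes on the y axis.

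SLCO4A1 was the most abundant SLCO transporter gene in 95D cells. Of the 11 other family members in the tables, SLCO5A1 (1.14 to 1.36 FPKM over the 5 libraries) and SLCO6A1 (0.684 to 1.03 FPKM) reached the level for testing. Neither was called against control in either deprivation, with log2 differences of 0.04 to 0.15, and by limma at an unadjusted p under 0.05 the count was also 0. The other 9 stayed below 1 FPKM in every library. SLCO4C1, a carrier known from kidney, stood at 0.580 FPKM in glutamine deprivation and at 0.317 and 0.178 FPKM in glucose deprivation, against 0.475 and 0.536 FPKM in control. SLCO2A1, a prostaglandin carrier, stood at 0.760 FPKM in glutamine deprivation and at 0.382 and 0.267 FPKM in glucose deprivation, against 0.166 and 0.222 FPKM in control. The liver carriers SLCO1B1 and SLCO1B3, with SLCO1B7 and the brain carrier SLCO1C1, were listed at 0 throughout.

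Genes that transport or read thyroid hormone, one of the substrates of OATP4A1, differed between the deprivations. Of 25 listed genes other than SLCO4A1, 14 were tested. Among them, SLC7A8 reached 1 FPKM only in the glutamine-deprived library, which favours its rise there. In glutamine deprivation 9 rose and none fell against control (limma; 0 fell at an unadjusted p under 0.05 too; 64.3% called, where 51.1% of all genes tested were called), with a median log2 difference of 0.31 beside 0.04. In glucose deprivation 5 rose and 5 fell (71.4% called, where 54.8% were), with medians of 0.01 and 0.02. The counts in glutamine deprivation were 13 higher and 0 lower without scaling and 7 and 0 with the upper quartile, and those in glucose deprivation were 5 higher and 1 lower with scaling to the total. Between the deprivations 9 were higher and 2 lower in glutamine than in glucose deprivation (78.6% called, where 44.6% of all genes tested were called, 22.5% higher and 22.1% lower). SLC7A5, the light chain of an amino acid exchanger that also carries thyroid hormone, rose in glutamine deprivation to 94.1 FPKM, against 56.6 and 57.3 FPKM in control (0.72 ± 0.06; limma, adjusted p = 6.25e-05).

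Its heavy chain partner SLC3A2 rose in glucose deprivation instead, to 91.3 and 100.2 FPKM, against 39.4 and 42.0 FPKM in control (1.21 ± 0.06; limma, adjusted p = 5.24e-06). THRA, a thyroid hormone receptor, fell in glucose deprivation to 2.88 and 2.78 FPKM, against 4.76 and 4.48 FPKM in control (-0.55 ± 0.05; limma, adjusted p = 9.96e-05). The hormone-activating and -inactivating deiodinases DIO1, DIO2 and DIO3 were at most 0.14 FPKM in every library.

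Genes for prostaglandin E2 and estrone sulfate, further substrates of OATP4A1, were called lower more often than higher in each deprivation, not always the same genes. Of 27 listed genes other than SLCO4A1, 9 were tested. In glutamine deprivation none rose and 6 fell against control (limma; 0 rose at an unadjusted p under 0.05 too; 66.7% called, where 51.1% of all genes tested were called), with a median log2 difference of -0.24. In glucose deprivation 1 rose and 6 fell (77.8%, where 54.8% were), with a median of -0.22. PTGES2, PTGES3, ABCC4 and HSD17B12 were called lower in both. PTGER2 and ESRRA were called lower in glucose deprivation, and HSD17B4 and HSD17B7 in glutamine deprivation. The median turned to 0.06 in glutamine deprivation when values were scaled to the total, where 11 members were tested and none was called. PTGES3, a cochaperone also described as a prostaglandin E synthase, fell to 111 FPKM in glutamine deprivation (-0.64 ± 0.05; limma, adjusted p = 5.23e-05) and to 107 and 105 FPKM in glucose deprivation (-0.71 ± 0.04; limma, adjusted p = 1.1e-05), against 176 and 171 FPKM in control. HSD17B12, a steroid and fatty acyl reductase gene, fell by 0.45 in glutamine deprivation and by 0.25 in glucose deprivation, and both calls were lost with scaling to the total. The synthases PTGS1 and PTGS2 and the sulfatase STS were below 1 FPKM in every library.

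Of 9 pumps that export organic anions or drugs, 7 were tested, and 3 rose and 3 fell against control in each deprivation (85.7% called, where 51.1% of all genes tested were called in glutamine deprivation and 54.8% in glucose deprivation). In glutamine deprivation 4 were higher and 0 lower without scaling, and 3 and 0 with scaling to the total, where 6 pumps were tested in each case. ABCC6 reached 1 FPKM only in the glutamine-deprived library and ABCG2 only in control, which favours the directions in which they were called. The medians were 0.12 in glutamine deprivation and -0.09 in glucose deprivation. With the upper quartile, where 7 pumps were tested, that in glutamine deprivation turned to -0.02. That in glucose deprivation was 0.08 without scaling and 0.13 with the total, but only 6 pumps were tested there. A change of members and a change of scaling are thus mixed in that turn of sign. ABCC1, a multidrug resistance pump, rose in both, by 0.85 ± 0.07 in glutamine deprivation (limma, adjusted p = 4.93e-05) and 0.36 ± 0.05 in glucose deprivation (limma, adjusted p = 0.000747). ABCC10 rose by 0.38 in glutamine deprivation and 0.51 in glucose deprivation. ABCB1, which encodes P-glycoprotein, fell in glucose deprivation, to 0.931 and 0.930 FPKM, against 1.95 and 2.02 FPKM in control (-0.63 ± 0.07; limma, adjusted p = 0.000218).

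The genes tied to SLCO4A1-AS1 in earlier work on cancer cells showed no shared direction. CTNNB1, which encodes beta-catenin, fell to 36.1 FPKM in glutamine deprivation (-0.62 ± 0.05; limma, adjusted p = 6.49e-05) and to 37.5 and 38.4 FPKM in glucose deprivation (-0.55 ± 0.04; limma, adjusted p = 3.18e-05), against 55.3 and 57.1 FPKM in control. EGFR, a growth factor receptor gene, rose to 3.76 FPKM in glutamine deprivation (0.73 ± 0.07; limma, adjusted p = 9.27e-05) and to 2.45 and 2.29 FPKM in glucose deprivation (0.23 ± 0.06; limma, adjusted p = 0.00769), against 1.80 and 1.94 FPKM in control. The EGFR call in glucose deprivation was lost without control replicate 1 or without glucose deprivation replicate 1. TOX4, a chromatin protein gene, was not called, with differences of -0.14 and -0.08 (limma, adjusted p = 0.0765 and 0.163).

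Of 28 genes of the Wnt and beta-catenin pathway, 24 were tested. Among them, TCF7 and TCF7L1 reached 1 FPKM only in the glutamine-deprived library, which favours their rise there. In glutamine deprivation 12 rose and 4 fell against control (66.7% called, where 51.1% of all genes tested were called), with a median log2 difference of 0.21, and in glucose deprivation 5 rose and 11 fell (66.7%, where 54.8% were), with a median of -0.08. Between the deprivations 14 were higher and 1 lower in glutamine than in glucose deprivation (62.5%, where 44.6% were). The median in glucose deprivation against control turned to 0.02, with 3 higher and 3 lower, when values were scaled to the total. In glutamine deprivation 9 were higher and 4 lower with the upper quartile (median 0.07, beside -0.09 over all genes tested). With the total these were 14 and 0 (median 0.45, beside 0.30). CCND1, the cyclin D1 gene and a beta-catenin target, fell to 11.4 FPKM in glutamine deprivation (-0.50 ± 0.05; limma, adjusted p = 0.000165) and to 7.37 and 7.25 FPKM in glucose deprivation (-1.09 ± 0.04; limma, adjusted p = 3.09e-06), against 16.6 and 16.7 FPKM in control. DVL3, a signal transducer downstream of Wnt receptors, rose by 0.71 in glutamine deprivation and 0.36 in glucose deprivation. AXIN1, a scaffold of the beta-catenin destruction complex, fell by 0.45 in glucose deprivation, and in glutamine deprivation its difference of 0.04 did not pass the test (limma, adjusted p = 0.639). The calls for CTNNB1 and CCND1 in glutamine deprivation and for AXIN1 in glucose deprivation were lost with scaling to the total.

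The libraries had inferred depths of 34525000 to 48925000 reads and FPKM sums of 493129 to 571208. Of the markers of an epithelial line, KRT8 (4.15 to 5.50 FPKM) and KRT18 (16.0 to 21.7 FPKM) were present, and EPCAM, CDH1, KRT7 and KRT19 were absent or below 0.25 FPKM in every library. VIM, a mesenchymal filament gene, stood at 85.1 FPKM in glutamine deprivation and at 135 and 150 FPKM in glucose deprivation, against 77.7 and 76.2 FPKM in control. The lung lineage gene NKX2-1 stood between 0.709 and 1.17 FPKM, and SFTPB and SCGB1A1 were at 0. Of 10 markers of leukocytes, endothelium, fibroblasts, liver and islets, 9 stayed below 1 FPKM in every library. COL1A1, the exception, reached 1.83 FPKM in the glutamine-deprived library. The 10 markers summed to between 0.586 and 2.52 FPKM per library, and their part in the result was not tested. In bulk RNA, more cells that express a gene and more RNA of it per cell cannot be told apart.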

How the data were processed

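Libraries were read as pairs of 150 bases. The submitters' processing notes name HISAT2 2.0.5, StringTie and hg38; no version of StringTie, annotation or strand setting is given in the sources used here. The authors deposited 1 value per gene name and library, read here as FPKM although no header says so, because the values are fractional and because, for genes of 1 exon with few reads, 94.1% to 94.9% correspond to whole reads within 0.05. Of the columns, 1 was left out, as its header names glucose deprivation replicate 2 inside the glutamine table.

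FPKM were divided by TMM-type factors (0.960 to 1.08), and genes reaching 1 FPKM in any library, 16598 in all, were fitted on log2(FPKM + 1) with limma 3.58.1 in R 4.3.3, with 1 coefficient per group and 2 residual degrees of freedom. The variance trend followed inferred reads (FPKM times GENCODE 29 exon length). P-values are two-sided, Benjamini-Hochberg adjusted over all genes tested, with a threshold of 0.05. The fit was tested on simulated data in which far fewer genes changed than were called here. That test does not cover the dependence of the calls on scaling. Alternatives were other scalings, pseudocount, filter and variance trend, a replicate block and leaving out each library.

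The 2 genes and all lists were chosen with earlier results of these data known. Of a list, up to 4 members with the smallest adjusted p and those changed at least 2-fold are named, with others only to give levels of genes of a stated role. Of the antisense RNAs, the 5 largest rises and 3 largest falls are named. Some genes that this rule names are not reported here.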

Additional observations from a re-analysis of the deposited data

Results flagged for a closer look

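SLCO4A1-AS1 differed between the 2 deprivations, which were set against the same controls. The pooled spread used for it includes those controls, where this RNA was near absent. Glutamine deprivation minus glucose deprivation was -0.304 on the log2(FPKM + 1) scale (limma, adjusted p = 0.00334), with 114 FPKM in the glutamine-deprived library below both glucose-deprived libraries, at 145 and 137 FPKM. SLCO4A1 differed the other way, by 0.505 (limma, adjusted p = 0.00268), with 5.16 FPKM in the glutamine-deprived library above both glucose-deprived libraries, at 3.29 and 3.39 FPKM.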

How the results depend on the processing

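The 2 genes kept their direction between the deprivations under all 12 alternatives, SLCO4A1-AS1 from -0.387 to -0.10 (adjusted p from 0.000966 to 0.756) and SLCO4A1 from 0.435 to 0.68 (adjusted p from 0.000558 to 0.0623). The call for SLCO4A1-AS1 was lost without scaling (-0.185, adjusted p = 0.0544), with scaling to the total (-0.10, 0.756), with a pseudocount of 0.1 FPKM (-0.306, 0.139) and without a filter (-0.304, 0.0524), and that for SLCO4A1 without a filter (0.505, 0.0623); the cause was not tested. Leaving out 1 library gave -0.341 to -0.266 for SLCO4A1-AS1 and 0.489 to 0.521 for SLCO4A1. Against control, SLCO4A1-AS1 stood at 9.92 in glutamine deprivation and 10.2 in glucose deprivation with a pseudocount of 0.1, which adds less to control values near 0. In glutamine deprivation it was 6.93 without scaling, 6.72 with the upper quartile and 7.03 with the total. SLCO4A1 was 0.221, -0.054 and 0.351 in glutamine deprivation under these scalings (leaving out 1 library, -0.006 to 0.171) and -0.328 in glucose deprivation with the total or -0.515 with the smaller pseudocount (leaving out 1 library, -0.511 to -0.335).

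Genes called numbered 8479 in glutamine deprivation against control, 9104 in glucose deprivation against control and 7411 between the deprivations. With scaling to the total, 5503 were called in glucose deprivation and 4269 between the deprivations. Leaving out 1 library gave 5525 to 8447, 5755 to 7881 and 5396 to 6224, the lowest in glucose deprivation without control replicate 1 (5755) or 2 (5900). Of 324 list counts under alternatives, 283 stayed within 1.5 times. Replicate numbers were not shown to pair the libraries (r = -0.022). With a replicate block the counts were 7585, 8853 and 6404, and the differences between the deprivations were -0.336 for SLCO4A1-AS1 and 0.469 for SLCO4A1.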
